A study of Mus musculus with 3 samples.

Results

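The genes of leukocyte metalloproteases and of their tissue inhibitors, 10 in all and taken by symbol, were followed in granulocyte progenitors, marrow cells on the way to becoming granulocytes. They are Mmp8, Mmp9 and Mmp25 of the matrix metalloproteinases (MMPs), Adam8, Adam10, Adam15, Adam17 and Adam19 of the ADAM proteases, and the tissue inhibitors Timp1 and Timp2. All 10 were found among the 24421 gene symbols listed for each library. Of them, 9 reached an RPKM (reads per kilobase of transcript, scaled to a size set for each library) of 1 somewhere. Timp1 was listed at 0 throughout. RNA sequencing had been done on cells purified by flow cytometry from female mice, with 1 library in each of 3 groups. The control library came from F1 semi-syngeneic (H-2b/d) mice without a tumor (NTB). The tumor-bearing library (4T1-TB) came from F1 mice of the same kind that carried 4T1 cells, a mouse mammary carcinoma line, at the orthotopic site. The third library came from C57BL/6 (H-2b) mice labelled as deficient in IRF8 (here IRF8-deficient). IRF8 is a transcription factor that favours monocytes and dendritic cells over neutrophils. Strain and genotype change together here and cannot be told apart in any comparison with the IRF8-deficient library. In IRF8-deficient against 4T1-TB the 4T1 tumor changes along with them. Mouse ages, the number of mice behind a library and the kind of Irf8 mutation are not stated in the labels.

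MMPs and ADAMs are zinc-dependent proteases. MMPs are made as inactive precursors, and the neutrophil collagenase MMP8 and the gelatinase MMP9 are stored in granules that form late in neutrophil maturation and are released on activation. ADAMs are membrane proteins that cut other surface proteins close to the membrane, a process called shedding, and TIMPs block MMPs and some ADAMs by binding the active site.

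Recovered reads came to between 24431750 and 43956310 per library, and the 10658 genes that reached an RPKM of 1 somewhere were compared. The share of reads on the 20 highest genes was 10.4% (NTB), 15.9% (4T1-TB) and 31.2% (IRF8-deficient). Reads on the ribosomal RNA precursor gene Rn45s made up 2.0%, 6.9% and 14.9%, and the RPKM of Lars2, a mitochondrial leucyl-tRNA synthetase gene, was 70.2, 2790 and 11712. These values have the library order of Mmp8, Mmp9, Mmp25, Adam8 and Timp2, and of the deposited RPKM of Adam10 and Adam15. Their part in the differences of these genes was not tested. Irf8 itself had RPKM values of 43.8 (NTB), 8.60 (4T1-TB) and 13.7 (IRF8-deficient), which does not check the label, since the mutation is not stated. All 11 markers listed for granulocyte progenitors reached an RPKM of 1 in every library, among them the granule enzyme genes Elane and Mpo. Their levels differed, with a summed RPKM of 17625, 20988 and 10515 in the same order of libraries. Cd34, a surface antigen gene of early progenitors, was lower in both other libraries than in NTB (8.73 and 5.41 against 36.9). Fcgr3, another of the 11, was higher in IRF8-deficient (275) than in NTB (101) or 4T1-TB (108). In IRF8-deficient against 4T1-TB 1 of the 11 passed the 2-fold call given below as higher and 3 as lower (8.83% and 7.07% of all genes). Each group has 1 library, so no difference was tested against a spread between animals. Intervals are 95% exact intervals for counting error only. The call used for each gene was a difference of at least 1 in either direction on log2(RPKM + 1), a 2-fold call on a scale that understates differences of low genes. Both comparisons with NTB use the same NTB library.

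The granule and membrane MMPs formed the group with the widest range, lowest in NTB, intermediate in 4T1-TB and highest in IRF8-deficient. Mmp8, the neutrophil collagenase gene, lies on the plus strand of mm10 chromosome 9 (7558456 to 7568485, ENSMUSG00000005800.3). Its RPKM was 2.45 in NTB, 36.0 in 4T1-TB and 132 in the IRF8-deficient library, from 269, 1961 and 8454 reads. The intervals of these levels did not overlap. Mmp8 was 14.7-fold higher in 4T1-TB than in NTB (interval 12.9 to 16.8), 53.9-fold higher in IRF8-deficient than in NTB (47.7 to 61.1) and 3.67-fold higher in IRF8-deficient than in 4T1-TB (3.49 to 3.85).

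Mmp9, which encodes a gelatinase that cuts denatured collagen and basement membrane collagen, lies on the plus strand of chromosome 2 (164940780 to 164955850, ENSMUSG00000017737.2). It had RPKM values of 1.91 (NTB), 29.8 (4T1-TB) and 149 (IRF8-deficient), from 271, 2103 and 12383 reads. Again no 2 intervals overlapped. Mmp9 was 15.7-fold higher in 4T1-TB than in NTB (13.8 to 17.8) and 78.4-fold higher in IRF8-deficient than in NTB (69.5 to 88.7). Among the 10658 genes compared, Mmp9 ranked 9514 by RPKM in NTB, 2485 in 4T1-TB and 392 in the IRF8-deficient library. By size of the rise over NTB it ranked 16 in 4T1-TB and 5 in IRF8-deficient, while Mmp8 ranked 15 and 10. The order of the pair also turned. The RPKM of Mmp9 was 0.779 times that of Mmp8 in NTB, against 0.829 in 4T1-TB and 1.13 in IRF8-deficient.

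Mmp25 encodes a membrane-anchored MMP of leukocytes also called leukolysin and lies on the minus strand of chromosome 17 (23628311 to 23645277, ENSMUSG00000023903.8). Its RPKM was 0.768 in NTB, 2.67 in 4T1-TB and 25.3 in the IRF8-deficient library, from 116, 200 and 2227 reads. On the log scale, and unlike Mmp8 and Mmp9, most of its range lay between 4T1-TB and IRF8-deficient. The ratio was 3.48 for 4T1-TB over NTB (2.75 to 4.41) and 9.47 for IRF8-deficient over 4T1-TB (8.19 to 11.0). On the log2(RPKM + 1) scale the first of these differences was 1.05, close to the call, and rescaling without the 20 highest genes put it at 0.997. The reads of Mmp25 rest on an implied length of 3373 bases, against 4528 in the reference, and its ratios do not depend on that length.

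**Figure D1:**
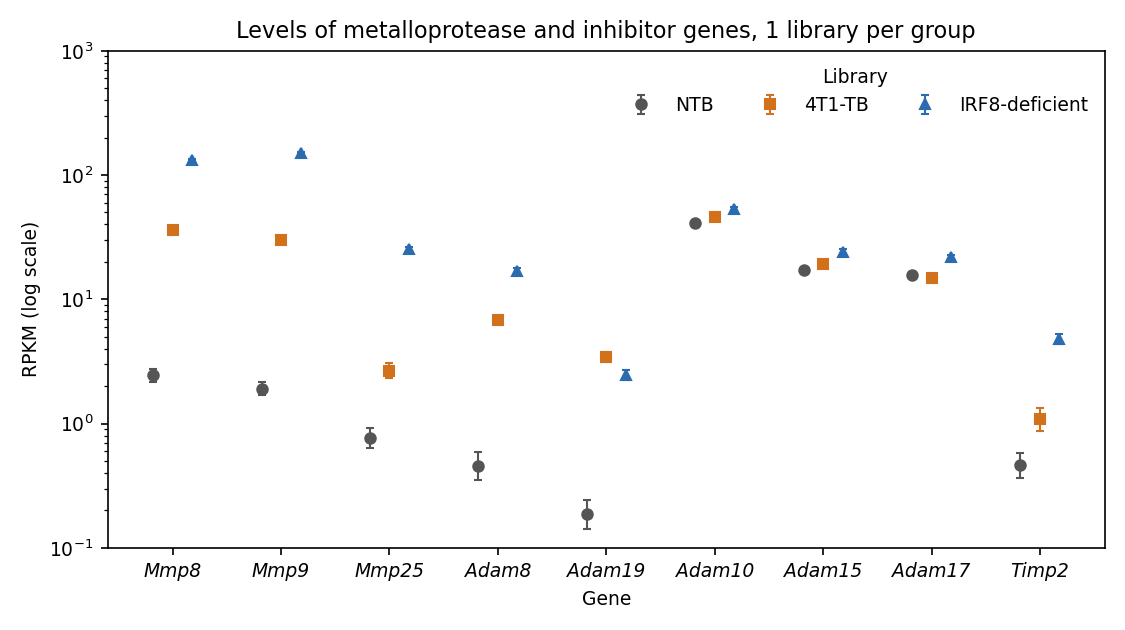
RPKM on a log axis for 9 of the genes (Timp1, listed at 0, is left out) in the NTB, 4T1-TB and IRF8-deficient libraries, with 95% intervals for counting error. Mmp8 and Mmp9 climb from an RPKM of 2.45 and 1.91 in NTB to 132 and 149 in IRF8-deficient, while Adam10, Adam15 and Adam17 stay within a narrow band.

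Among the ADAMs, Adam8 and Adam19 differed between libraries far more than Adam10, Adam15 and Adam17. Adam8, which encodes a surface protease of granulocytes and monocytes, lies on the minus strand of chromosome 7 (139978932 to 139992562, ENSMUSG00000025473.16). Its RPKM was 0.458 in NTB, 6.79 in 4T1-TB and 16.8 in the IRF8-deficient library, from 64, 470 and 1369 reads. It was 14.8-fold higher in 4T1-TB than in NTB (11.4 to 19.5), 36.7-fold higher in IRF8-deficient than in NTB (28.5 to 47.9) and 2.48-fold higher in IRF8-deficient than in 4T1-TB (2.23 to 2.76). The order of the libraries was thus that of the MMPs. The last of these calls was lost when libraries were scaled by summed reads, with a difference of 0.82 in place of 1.19. Relative to the median of all genes compared, that difference was 1.17 under this scaling and 1.19 as deposited.

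Adam19, which encodes an ADAM also called meltrin beta, lies on the plus strand of chromosome 11 (46055992 to 46147343, ENSMUSG00000011256.16). It was the only one of the 9 genes compared with its highest level in 4T1-TB. Its RPKM was 0.187 in NTB, 3.43 in 4T1-TB and 2.45 in the IRF8-deficient library, from 54, 491 and 413 reads. It was 18.3-fold higher in 4T1-TB than in NTB (13.8 to 24.8) and 13.1-fold higher in IRF8-deficient than in NTB (9.86 to 17.8). IRF8-deficient stood at 0.715 times 4T1-TB (0.626 to 0.817), which did not pass the 2-fold call. On the log2(RPKM + 1) scale its differences from NTB were 1.90 and 1.54, since the level was low. Annotated antisense transcripts share 587 and 480 exon bases with Adam19, and whether counting used strand is not stated in the labels.

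Adam10, the sheddase that cuts Notch receptors, was the highest of the 10 genes in NTB and 4T1-TB. Its RPKM was 40.7 in NTB, 46.1 in 4T1-TB and 53.6 in the IRF8-deficient library. Its locus is on the chromosome 9 plus strand (70678997 to 70780229, ENSMUSG00000054693.14). Its ratio to NTB was 1.13 in 4T1-TB (1.09 to 1.17), and the IRF8-deficient library stood at 1.32 times NTB (1.27 to 1.36). Adam17, which encodes the converting enzyme of tumor necrosis factor, had RPKM values of 15.7 (NTB), 14.9 (4T1-TB) and 22.0 (IRF8-deficient). Adam15, which encodes an ADAM with an integrin-binding disintegrin domain, had 17.2, 19.2 and 24.2. None of the 3 passed the 2-fold call in any comparison. Scaled by summed reads, the differences of Adam10, Adam15 and Adam17 between IRF8-deficient and NTB changed sign, from 0.39, 0.46 and 0.46 to −0.17, −0.07 and −0.08, so no direction is given for them. Under that scaling the median of all genes compared shifted by −0.50. Relative to that median, the differences of Adam10, Adam15 and Adam17 were 0.36, 0.45 and 0.44. Adam17 (minus strand of chromosome 12, 21323509 to 21373632) shares 311 exon bases with Iah1 on the other strand, and Adam15 (minus strand of chromosome 3, 89338542 to 89349996) shares 1263 with an antisense transcript. Reads in the shared stretches cannot be assigned with certainty.

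The balance among the ADAMs moved with Adam8. The RPKM of Adam8 was 0.0113 times that of Adam10 in NTB, against 0.147 in 4T1-TB and 0.314 in the IRF8-deficient library. The corresponding ratio of Adam17 to Adam10 was 0.386, 0.322 and 0.410.

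Markers of mature neutrophils were also higher in both other libraries than in NTB, but not all rose further as the MMPs did. Of 8 such markers, 5 were 2-fold higher in 4T1-TB than in NTB (1.67% of all genes were). In IRF8-deficient against NTB 6 were higher (8.78% of all genes were). None was lower in either, and none was at 0. In IRF8-deficient against 4T1-TB 3 were higher and 2 lower (8.83% and 7.07% of all genes). The 2 were Il1b, the gene of an inflammatory cytokine (3.41 against 10.9), and Stfa2l1, a stefin family gene (9.62 against 32.7). Their summed RPKM was 182 in NTB, 473 in 4T1-TB and 816 in the IRF8-deficient library. Ly6g, the neutrophil surface antigen gene, had 4.09, 8.16 and 84.3, and Cxcr2, a chemokine receptor of mature neutrophils, had 4.38, 30.2 and 39.5. The part of these cells in the differences of Mmp8, Mmp9, Mmp25 and Adam8 was not tested, and more cells of a type and more RNA per cell cannot be told apart in bulk samples. The 8 monocyte and macrophage markers summed to 258 in NTB, 131 in 4T1-TB and 258 in the IRF8-deficient library. F13a1 was the largest part of each sum (151, 89.8 and 163). In 4T1-TB against NTB 4 were 2-fold lower (1.35% of all genes were) and none higher. In IRF8-deficient against NTB Adgre1 was higher (9.22 against 2.39) and Ly86 lower (3.53 against 20.3). In IRF8-deficient against 4T1-TB 3 were higher and none lower (8.83% and 7.07% of all genes). T and NK cell, erythroid and stromal markers were near 0, with the exception of Pecam1 (12.0, 5.77 and 6.29). The highest of the basophil and mast cell markers was Mcpt8 (15.7, 20.4 and 8.73), and of the eosinophil markers Siglecf (12.9, 12.1 and 9.86). Those of B cells and dendritic cells were Cd79b (16.4, 12.3 and 10.3) and Bst2 (17.7, 20.4 and 12.6). The other markers listed for these types were lower. Of 5 epithelial markers of carcinoma cells, Epcam and Krt19 were at 0 in 4T1-TB and the highest there was Krt18 at 2.03, against 5.93 in NTB.

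Promoter windows were read for 9 of the 10 genes. Mmp9 had no window, so its promoter was not searched. Each window ran from 250 bases before to 50 bases after the RefSeq start site (assembly GRCm38.p6, the same coordinates as mm10). Windows are printed 5′ to 3′ for 3 genes that differed between libraries, Mmp8, Mmp25 and Adam8, and for Adam10, which did not pass a call. Capitals mark matches on either strand to 6 motifs. These were the C/EBP core TTNNGNAA, the PU box GAGGAA, the AP-1 site TGANTCA, the GC box GGGCGG, the ETS-IRF composite and the core of the interferon-stimulated response element. Adjacent GC boxes can overlap.
Mmp8 (chr9:7558179-7558478, plus strand): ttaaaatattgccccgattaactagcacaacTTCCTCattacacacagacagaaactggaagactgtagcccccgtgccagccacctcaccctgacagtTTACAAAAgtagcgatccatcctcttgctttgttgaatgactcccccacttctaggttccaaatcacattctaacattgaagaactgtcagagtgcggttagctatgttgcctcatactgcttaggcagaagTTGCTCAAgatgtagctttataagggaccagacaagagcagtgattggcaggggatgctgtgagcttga
Mmp25 (chr17:23645220-23645519, minus strand): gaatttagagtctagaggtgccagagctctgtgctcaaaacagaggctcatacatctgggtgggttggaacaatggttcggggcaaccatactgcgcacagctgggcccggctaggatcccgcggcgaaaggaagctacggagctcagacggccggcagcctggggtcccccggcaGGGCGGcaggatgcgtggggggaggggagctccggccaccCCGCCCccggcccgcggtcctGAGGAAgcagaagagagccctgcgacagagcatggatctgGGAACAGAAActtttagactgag
Adam8 (chr7:139992513-139992812, minus strand): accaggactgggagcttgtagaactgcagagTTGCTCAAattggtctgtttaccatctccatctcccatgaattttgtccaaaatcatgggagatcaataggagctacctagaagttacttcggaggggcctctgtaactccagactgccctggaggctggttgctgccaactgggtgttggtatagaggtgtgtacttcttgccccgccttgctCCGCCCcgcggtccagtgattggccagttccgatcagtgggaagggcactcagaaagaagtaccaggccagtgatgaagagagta
Adam10 (chr9:70678732-70679031, plus strand): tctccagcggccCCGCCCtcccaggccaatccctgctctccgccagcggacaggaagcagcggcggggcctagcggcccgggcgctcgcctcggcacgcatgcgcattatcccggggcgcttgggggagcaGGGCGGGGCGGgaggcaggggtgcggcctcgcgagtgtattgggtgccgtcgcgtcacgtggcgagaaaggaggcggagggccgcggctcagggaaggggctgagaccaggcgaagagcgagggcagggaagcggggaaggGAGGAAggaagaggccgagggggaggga

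The windows differed in base composition. Mmp8 held 4 CpG dinucleotides and Adam8 held 6, near the median of 7 over 32851 windows of the same length (quartiles 3 and 20). Mmp25 held 18, Adam10 32, Adam17 30, Adam15 25 and Timp2 25. Timp1 held 8, and the 3 Adam19 windows held 5, 11 and 5. The C/EBP core, a motif of the factors that drive granulocyte maturation, occurred at 2 places in Mmp8 and 1 in Adam8, also in Adam15, Timp1 and an Adam19 window, and in 40.7% of all windows. One of these matches was the same octamer, TTGCTCAA, in both windows, starting 19 bases before the start site in Mmp8 and 219 before it in Adam8. That octamer, singled out after it was seen, is in 0.962% of all windows. The ETS-IRF composite, which IRF8 can bind together with PU.1, matched once, in Mmp25 at 28 bases after the start site, and is found in 2.72% of all windows. A PU box was present in Mmp8, Mmp25, Adam10 and an Adam19 window, and in 28.3% of all windows. Among the printed windows GC boxes numbered 3 in Adam10, 2 in Mmp25, 1 in Adam8 and none in Mmp8, and 35.7% of all windows hold one. The AP-1 site (7.81% of all windows) matched only in 1 of the 3 Adam19 windows, and the interferon element core (3.44%) in no window of these genes. Letters that match are a description and not evidence of binding.

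Of the inhibitors, only Timp2 had reads. Timp2, which encodes an inhibitor of MMPs that also takes part in activating MMP2 at the cell surface, lies on the minus strand of chromosome 11 (118301069 to 118355740, ENSMUSG00000017466.9). Its RPKM was 0.462 in NTB, 1.08 in 4T1-TB and 4.79 in the IRF8-deficient library, from 75, 87 and 453 reads. Timp2 was 10.4-fold higher in IRF8-deficient than in NTB (8.10 to 13.4) and 4.43-fold higher than in 4T1-TB (3.51 to 5.64). Its ratio of 4T1-TB to NTB was 2.34 (1.70 to 3.23). That difference was 0.51 on the log2(RPKM + 1) scale, short of the call, and 1.07 with a pseudocount of 0.1, past it.

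Timp1, which encodes the inhibitor that binds the MMP9 precursor, is annotated on the plus strand of chromosome X (20870166 to 20874735, ENSMUSG00000001131.11). It was listed at 0 in every library. At its reference length of 883 bases, 3 reads would have given RPKM values of 0.0759 (NTB), 0.153 (4T1-TB) and 0.130 (IRF8-deficient). Eif3j1 and Eif3j2, near-identical genes for a subunit of a translation initiation factor that cells use generally, were also listed at 0, so the entry for Timp1 is given only as a listing.

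The summed RPKM of the 10 genes was 79.9 in NTB, 160.0 in 4T1-TB and 430.4 in the IRF8-deficient library, and its makeup changed from mostly ADAM to mostly MMP. The 3 MMP genes made up 6.41% of the sum in NTB, 42.8% in 4T1-TB and 71.2% in the IRF8-deficient library. The 5 ADAM genes made up 93.0%, 56.5% and 27.6%, although their own sum was 74.3, 90.4 and 119. The TIMP genes made up 0.579%, 0.676% and 1.11%, and their own sum was 0.462, 1.08 and 4.79. Summed MMP RPKM was 11.1 times summed TIMP RPKM in NTB, against 63.3 in 4T1-TB and 64.0 in the IRF8-deficient library. Those ratios rest on Timp2 alone and describe transcripts, not protein or activity. In the order of the 9 levels, Adam10, Adam15 and Adam17 led in NTB, Adam10 was followed by Mmp8 and Mmp9 in 4T1-TB, and Mmp9 and Mmp8 led in IRF8-deficient. Neighbours whose intervals overlapped were Timp2 and Adam8 in NTB (0.364 to 0.580 and 0.353 to 0.585), and Mmp25 and Adam15 in IRF8-deficient.

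**Figure D2:**
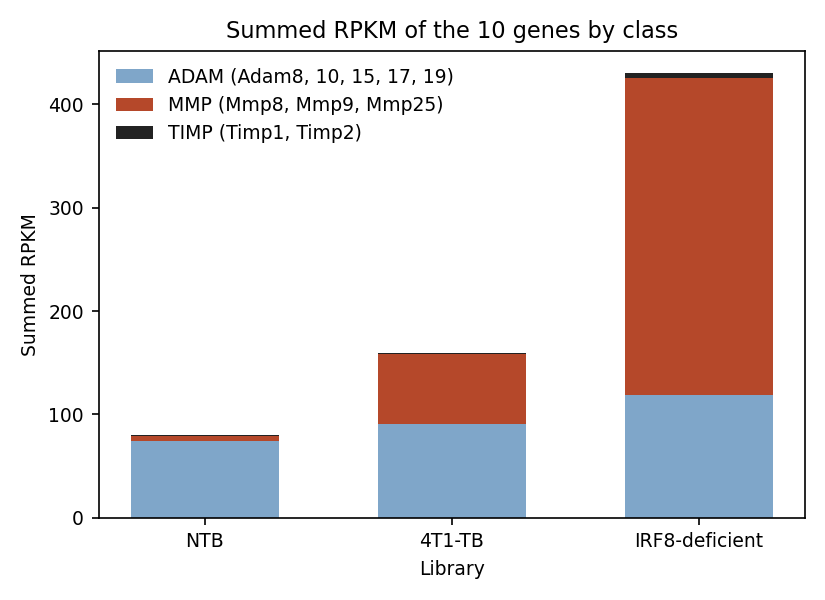
Stacked bars of summed RPKM per library for the 5 ADAM, 3 MMP and 2 TIMP genes, with the axis starting at 0. The MMP part grows from 5.12 in NTB to 68.5 in 4T1-TB and 307 in IRF8-deficient.

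Counted together, 5 of these 9 genes passed as 2-fold higher in 4T1-TB than in NTB, where 1.67% of all genes compared were (3.02% in either direction), and none was lower. These were Mmp8, Mmp9, Mmp25, Adam8 and Adam19. The median of the 9 was 1.05 against 0.01 for all genes. In IRF8-deficient against NTB, 6 of 9 were higher, Timp2 being the addition, where 8.78% of all genes were (14.5% in either direction), and none was lower. The median was 1.99 against −0.02 for all genes. In IRF8-deficient against 4T1-TB, 5 of 9 were higher and none lower (Mmp8, Mmp9, Mmp25, Adam8 and Timp2), where 8.83% of all genes were higher and 7.07% lower (15.9% in either direction). There the median of the 9 was 1.19, with that of all genes near 0. A 4-fold call held for 3 genes in 4T1-TB over NTB (Mmp8, Mmp9 and Adam8; 0.441% of all genes), and Mmp25 joined them in IRF8-deficient over NTB (1.9% of all genes). A filter that needs an RPKM of 1 in some library keeps a low gene only through the library where it is high, so these counts describe the genes and are not evidence about the class.

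**Figure D3:**
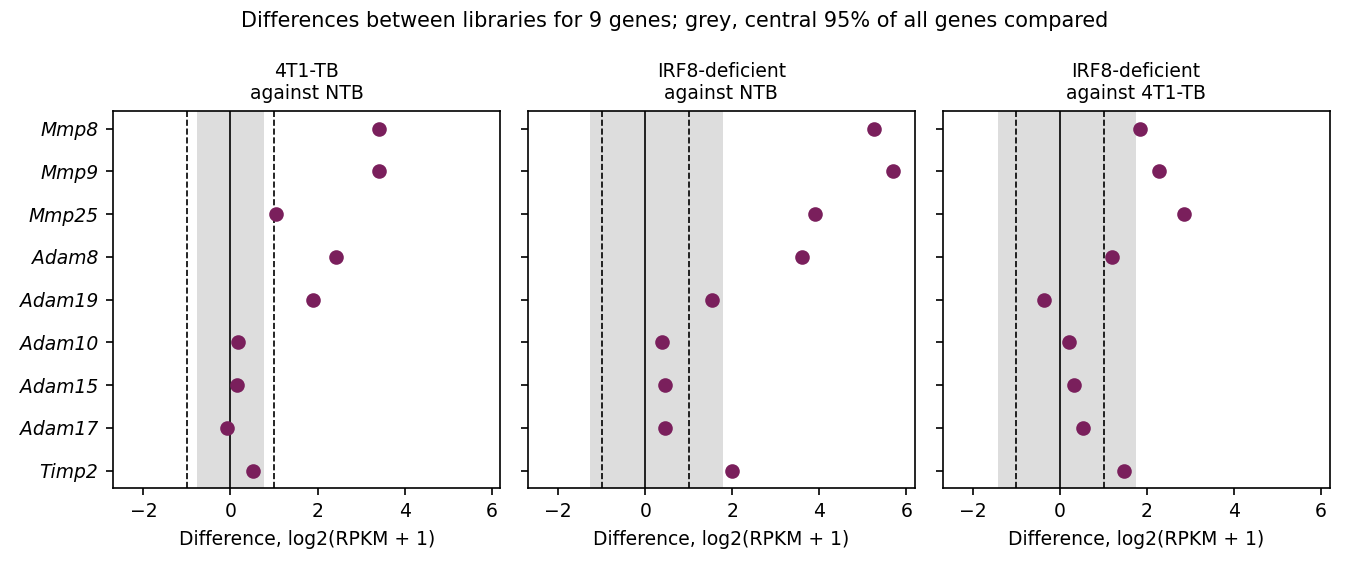
Differences on log2(RPKM + 1) for 9 genes in 3 comparisons, with dashed lines at the 2-fold call and grey bands for the central 95% of the 10658 genes compared. In IRF8-deficient against NTB the band runs from −1.27 to 1.78, and Mmp8, Mmp9, Mmp25, Adam8 and Timp2 lie to its right.

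**Figure D4:**
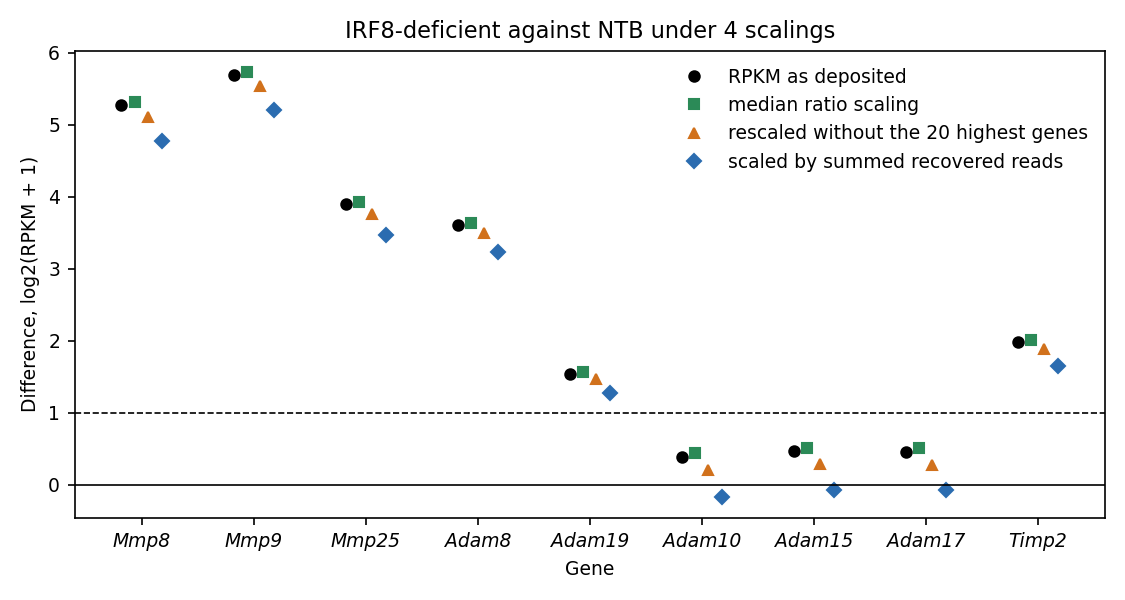
Differences on log2(RPKM + 1) between IRF8-deficient and NTB for 9 genes, with RPKM as deposited and under 3 other scalings. Mmp8, Mmp9, Mmp25, Adam8, Adam19 and Timp2 stay above 1 under each scaling, and Adam10, Adam15 and Adam17 move from above 0 to below 0 under scaling by summed reads.

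The genes nearest in pattern were sought for the 3 genes of widest range among 8272 genes that reached an RPKM of 5 in some library, predicted genes (Gm and Rik symbols) left out. The measure was the distance between the pairs of differences from NTB, over 3 libraries. For Mmp9 they were Mmp8 (distance 0.42), Ifitm6 (0.87) and Retnlg (1.16). For Mmp8 they were Mmp9, Ifitm6 (0.97) and Fpr2 (1.13). For Mmp25 they were Apobr (0.21), Ly6g (0.27) and Ceacam10 (0.41). Retnlg and Fpr2 encode a resistin-like protein and a formyl peptide receptor of neutrophils.

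The rest of the family was mostly silent or low. Of 75 other MMP, ADAM, ADAMTS, TIMP and Reck symbols, 34 were listed at 0 in every library and 9 reached an RPKM of 1. In 4T1-TB against NTB 1 was higher and 1 lower (1.35% of all genes compared were lower), and the median of the 9 was −0.21. In IRF8-deficient against NTB 1 was again higher and 1 lower (5.73% of all genes were lower), with a median of 0.02 that was −0.55 under scaling by summed reads. In IRF8-deficient against 4T1-TB 1 was higher, none was lower and the median was 0.14, or −0.20 under scaling by summed reads. Under that scaling 10 family genes passed the filter in place of 9, so these medians are not over the same genes. The medians of all genes compared were then −0.52 against NTB and −0.34 against 4T1-TB. Reck, which encodes a membrane-anchored inhibitor of MMPs, had RPKM values of 1.17 (NTB), 3.74 (4T1-TB) and 4.36 (IRF8-deficient). It was 3.20-fold higher in 4T1-TB than in NTB (2.71 to 3.79) and 3.73-fold higher in IRF8-deficient than in NTB (3.19 to 4.38). The second call was lost under scaling by summed reads, with a difference of 0.91 in place of 1.31. Mmp28, which encodes the MMP epilysin, was 4.10-fold lower in 4T1-TB than in NTB (3.34 to 5.07), at an RPKM of 1.01 against 4.15. Adam4 had 3.71 in NTB, 2.28 in 4T1-TB and 1.00 in the IRF8-deficient library, and passed the call as lower in IRF8-deficient against NTB. Adamts10, a secreted protease of the extracellular matrix, was highest of the 9 in IRF8-deficient at 12.3, against 4.67 in 4T1-TB and 8.61 in NTB. Its call against 4T1-TB was lost under scaling by summed reads (difference 0.88). Adam9 (7.03, 8.94 and 7.40) and Mmp19 (7.89, 7.33 and 8.20) did not pass a call.

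**Figure D5:**
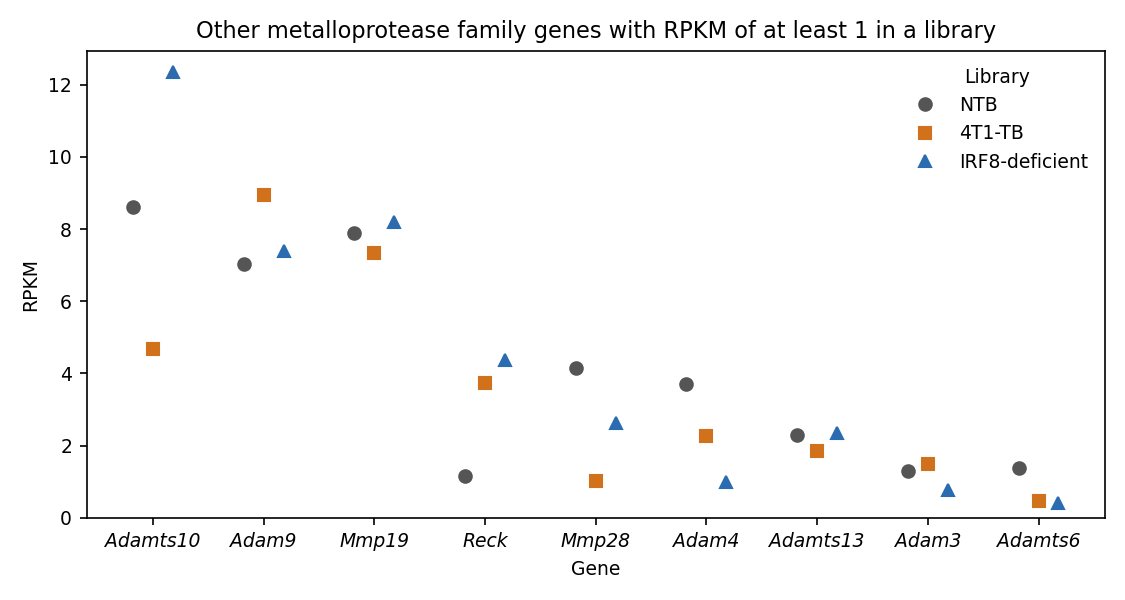
RPKM, on an axis from 0, of the 9 other family genes that reached an RPKM of 1 in the NTB, 4T1-TB or IRF8-deficient library. Reck stands at 1.17 in NTB and above 3 in the other libraries, and Mmp28 is lowest in 4T1-TB at 1.01.

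Of 14 genes that process or steer ADAMs, 8 were compared. None passed the call in 4T1-TB against NTB (median 0.25). In IRF8-deficient against NTB 2 were higher and 1 lower (8.78% and 5.73% of all genes). The median there was 0.49, or −0.04 under scaling by summed reads, where that of all genes was −0.52. In IRF8-deficient against 4T1-TB, 1 was lower and none higher. The median was 0.37, or −0.0097 under scaling by summed reads, where that of all genes was −0.34. Rhbdf2, which encodes iRhom2, the carrier of ADAM17 to the cell surface, had RPKM values of 3.97 (NTB), 7.16 (4T1-TB) and 12.0 (IRF8-deficient). Furin, the convertase that removes the ADAM prodomain, had 10.8, 14.6 and 24.5. Both calls against NTB were lost under scaling by summed reads, with differences of 0.90 for Rhbdf2 and 0.58 for Furin. Pdia6, a protein disulfide isomerase gene, was lower in IRF8-deficient (116) than in NTB (263). Tspan5 and Tspan14, which encode tetraspanins that guide ADAM10, had 16.5, 20.5 and 23.1, and 33.6, 38.7 and 43.6, without passing.

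Of 15 genes for activation, binding or clearance of MMPs, 11 were compared. In 4T1-TB against NTB 1 was higher, Lcn2, which encodes a lipocalin that binds MMP9 (203 against 89.2). In IRF8-deficient against NTB 6 rose past the call (8.78% of all genes did), none fell past it (5.73% did), and the median was 1.06. They were Lcn2 (5205), Plaur, the urokinase receptor gene (83.9 against 8.86), Plau, the urokinase gene (24.0 against 5.30), and Cd44, Cd82 and Lrp1, which encodes a receptor that clears MMPs. With scaling by summed reads that count was 3 higher and 4 lower, and Lcn2, Plaur and Plau were the 3. Rescaling without the 20 highest genes gave 4 higher and 3 lower. In IRF8-deficient against 4T1-TB 5 were higher and 3 lower (8.83% and 7.07% of all genes). The 3 were Ctsg, Prtn3 and Cd63, which encodes a tetraspanin that binds TIMP1 (75.4 against 181).

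Of 27 listed substrates of ADAM10 or ADAM17, 17 were compared. In 4T1-TB against NTB 1 was higher, 1 was lower and the median was −0.14. Il1r2, which encodes the decoy receptor for interleukin-1, had an RPKM of 23.9 against 1.76, while Csf1r, a growth factor receptor of the macrophage lineage, had 11.0 against 24.6. In IRF8-deficient against NTB 4 were higher (8.78% of all genes were), 1 was lower (5.73% were) and the median was 0.69. Il1r2 (22.3), Tnf (16.9 against 3.88), Cd44 (108 against 48.6) and Notch1 (25.3 against 10.3) were higher, and Vcam1, an adhesion molecule gene, was lower (10.5 against 99.6). The calls of Cd44 and Notch1 were lost under scaling by summed reads, with differences of 0.57 and 0.69. The list then had 2 higher and 3 lower, where 452 of 10708 genes were higher and 2077 lower. Its median was 0.13, against −0.52 for all genes. In IRF8-deficient against 4T1-TB 3 were higher, Tnf, Cd44 and Notch1, and 2 were lower, Vcam1 and Icam1 (8.83% and 7.07% of all genes). The median was 0.53, or 0.14 under scaling by summed reads, where that of all genes was −0.34.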

How the data were processed

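The data are 3 RNA sequencing libraries, 1 per group, grouped by the mouse model in the labels. The deposited values are RPKM made by the authors. The submitters' processing notes list build mm10 and, without roles, edgeR 3.12.1, HTSeq 0.6.1, TopHat2 2.0.13, Picard 1.97, cutadapt 1.2.1 and CASAVA 1.8.2. The sources used here give no annotation, strandedness or filter.

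Levels are RPKM as deposited. The values of low genes stood in whole-number ratios, so reads were recovered with gene lengths from GENCODE M21 (mm10). Implied lengths were whole, within 0.01, for 99.9% of 11911 genes with 20 or more reads, and within 0.8 to 1.25 of the reference for 91.4%. Neither share is fully independent, since the reference chose common factors. An RPKM of 1 at the median length of 3025 bases rested on 136, 67.2 and 79.0 reads (NTB, 4T1-TB, IRF8-deficient). Ratio intervals are exact binomial and level intervals exact Poisson.

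No statistical test was made. The 9 alternatives were pseudocounts of 0.1 and 5, a 4-fold call, no filter, a filter at an RPKM of 5, a call whose counting interval must exclude 1, and scaling by median ratios, by summed reads or without the 20 highest genes. All 10 genes were named by rule, and of each list up to 6 genes past the call, largest difference first, plus the 5 highest of the family. Further list genes are named after their values were seen, among them Tspan5 and Tspan14. The genes, lists and rules were chosen with earlier results of these data known. Motifs were chosen after the values had been examined. Read recovery and differences were first tested on simulated libraries. Software was matplotlib 3.10.9, pandas 2.3.3, scipy 1.17.1 and numpy 2.4.6 under Python 3.11.15.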

Additional observations from a re-analysis of the deposited data

How the results depend on the processing

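No paired analysis was possible because each group has 1 library. Counts below are for 4T1-TB against NTB, then IRF8-deficient against NTB, then IRF8-deficient against 4T1-TB, where 5, 6 and 5 of the 10 genes, 322, 1547 and 1695 of all genes and 2, 2 and 1 of the other family genes passed the call. A pseudocount of 5 gave 3, 4 and 3 of the 10 genes, 86, 675 and 786 of all genes, and 0 family genes in each. It lost the calls of Mmp25 (0.41) and Adam19 (0.70) in the first comparison. In the second it lost Adam19 (0.52) and Timp2 (0.84), and in the third Adam8 (0.89) and Timp2 (0.69). A pseudocount of 0.1 gave 636 of all genes in the first comparison (282 higher and 354 lower) and 3 family genes in the third. A 4-fold call gave 3 of the 10 genes in the first comparison and 2 in the third, 52, 244 and 228 of all genes, and 0 family genes in each. An RPKM of at least 5 gave 189 of all genes in the first comparison and 0 family genes in the first and the second. Scaling by summed recovered reads gave 2529 of all genes in the second comparison (452 higher and 2077 lower, in place of 936 and 611), and 1 and 0 family genes in the second and the third. It gave 155 higher and 212 lower in the first, in place of 178 and 144, and 496 and 1608 in the third, in place of 941 and 754. Rescaling without the 20 highest genes gave 158 higher and 177 lower in the first, 721 and 936 in the second, and 829 and 845 in the third. Under scaling by summed recovered reads the difference of Adam15 in the first comparison became −0.0083, those of Adam10, Adam15 and Adam17 in the second −0.17, −0.073 and −0.077, and those of Adam10 and Adam15 in the third −0.18 and −0.065. That scaling shifts all genes alike, with medians moved by −0.15, −0.50 and −0.34. Mmp8 and Mmp9 kept direction and call in each comparison under both pseudocounts and the 3 other scalings. The ratios of summed MMP to summed TIMP RPKM do not move with scaling by construction. Among the 9 genes the NTB levels of Adam19, Adam8 and Timp2 are the least precise, at 54, 64 and 75 reads.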

Other observations

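Levels of other neutrophil granule genes in 4T1-TB were mixed. Of 20 granule and maturation genes compared, 4 were 2-fold higher and 1 lower in 4T1-TB against NTB (1.67% and 1.35% of all genes). In IRF8-deficient against NTB 14 were higher and none lower (8.78% and 5.73% of all genes). The medians were 0.50 and 2.32. Of the lactoferrin, cathelicidin and neutrophilic granule protein genes, Ltf stood in 4T1-TB at 0.864 times NTB, Camp at 0.623 times and Ngp at 0.671 times, while Mmp8 was 14.7-fold and Mmp9 15.7-fold higher there. Olfm4, which encodes a protein of a subset of neutrophil granules, stood at 0.418 times NTB in 4T1-TB, and that call was lost under median ratio scaling, where the difference fell just short of it. Slc11a1, which encodes a metal ion transporter of tertiary granules, was among the 4 that were higher, 5.93-fold (interval 3.96 to 9.09), with Lcn2 (2.27-fold), Chil1 (2.91-fold) and Cd177 (2.49-fold). Under scaling by summed reads the count for IRF8-deficient against NTB was 13 higher and 5 lower. Of all 10708 genes then compared, 452 were higher and 2077 lower. Rescaling without the 20 highest genes gave 14 higher and 3 lower, where 721 of 10680 genes were higher and 936 lower. The difference between Mmp8 or Mmp9 and the other granule genes was not tested.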
